A study of Homo sapiens with 6 samples.

Results

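MYC and 41 genes around it were followed through every library of the study: MAX, the obligate dimer partner of MYC, and 40 genes whose products build the ribosome in the nucleolus. The 42 genes were chosen by gene symbol from the 24872 rows of the deposited expression table, by a rule that uses none of their values. Each was found under its symbol, and all 42 were among the 13998 rows that averaged 0.5 FPKM or more (fragments scaled by transcript length and by library total) and entered the test. RNA was sequenced from 22RV1, an established human prostate cancer cell line, in 6 libraries collected on day 2. The NC group (2 libraries) was the control, whose content the labels do not describe. The OE group (2 libraries) overexpressed MAGI2-AS3, a long noncoding RNA, and the mimics group (2 libraries) received the microRNA miR-106a-5p. The sample titles speak of mimics and the treatment text of overexpression plasmids for either RNA, so how the microRNA was delivered is uncertain. MAGI2-AS3 and miR-106a-5p were themselves not analysed here. The labels do not say whether replicates were separate cultures, so p-values measure only how far these libraries spread, and that spread may be technical.

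MYC is a transcription factor that binds DNA with MAX at E-box motifs, and genes of ribosome production are among its best described targets. In the nucleolus, RNA polymerase I copies the ribosomal DNA into a long precursor RNA. Small nucleolar RNA (snoRNA) particles modify this precursor, and assembly factors fold, cut and escort it until the small and the large ribosomal subunit are exported. Prostate tumours often carry high MYC, and a high output of ribosomes goes with rapid growth in many cancers.

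A pair of sequence features bear on these comparisons: the seed of miR-106a-5p, and the E-box CACGTG, the palindromic motif that MYC and MAX bind. The first is shown by the mature microRNA (RefSeq, GRCh38.p14, chrX:134170244-134170266, minus strand), with bases 2 to 8, the seed, in capitals.
hsa-miR-106a-5p: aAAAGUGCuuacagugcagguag
A match is read here as a 3′ UTR of GENCODE 29 with GCACTTT, the complement of the seed, or with CACTTT followed by A. Of the 42 genes, 8 (19.0%) had such a match, against 28.1% of 12211 tested protein-coding genes. The 3′ UTRs of the 42 genes were shorter, with a median of 498.5 bases against 1067 bases. MYC and WDR74 had none in the transcript searched.
Of the 10 matches in these 8 genes, the 4 that follow show the 2 longest and those of a pair of RNA polymerase I factors, with the match in capitals. They lie on GRCh38 at chr2:86022829-86022856, chr2:202879362-202879389, chr17:44205346-44205373 and chr16:15060503-15060530, all on the minus strand.
POLR1A: tacagtcccaGCACTTTAagagactcag
WDR12: tttaaggaagGCACTTTAtattaaatat
UBTF: tttgaatgggGCACTTTttctttcctgt
RRN3: ttattttctgcCACTTTAtttaaaggca

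The E-box was sought on both strands in RefSeq promoter windows of GRCh38.p14, which span 250 bases before to 50 bases after each start. Such a window was at hand for 36 of the 42 genes, and 16 of these (44.4%) held CACGTG. The share was 8.77% of all 27305 genes with a window and 12.8% of the 9734 tested genes outside the set. By role, the motif stood in 8 of 11 small subunit factors, 6 of 13 large subunit factors and in FBL and GAR1 among the snoRNA particle proteins, and in 0 of 4 RNA polymerase I genes. MYC, NOLC1, NOP58, RRP12, RRS1 and BOP1 were not searched.
In 11 of the 16 genes the motif began after the start and in 5 before it, within a span from base -31 to base 36. Those shown are the E-boxes of UTP4, UTP20 and NOP2, which differed most between libraries among the 16, those of the snoRNA particle proteins (FBL, GAR1), and those of NAT10 and PES1. They are written along the gene, with CACGTG in capitals. They lie at chr16:69132623-69132648 (plus strand), chr12:101280085-101280110 (plus), chr12:6568242-6568266 (minus), chr19:39846358-39846383 (minus), chr4:109815783-109815808 (plus), chr11:34105604-34105629 (plus) and chr22:30591882-30591907 (minus).
UTP4: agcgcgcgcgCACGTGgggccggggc
UTP20: tttttccgtcCACGTGacccactcag
NOP2: gtccggattgCACGTGgagggccgc
FBL: cgctcttttcCACGTGcgaaagcccc
GAR1: gccagaggggCACGTGgcgccggtga
NAT10: tgcgcttgcgCACGTGctgtctacca
PES1: cttggcagggCACGTGcgggaggaag
A match of letters is a description of the window and says nothing of whether MYC was bound there in these cells.

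Prostate epithelial genes were present in every library, with KRT8 at 317 to 672 FPKM and KRT18 at 169 to 251 FPKM. All 10 listed prostate epithelial markers had a log2 difference of OE from NC below 0, with a median of -0.19, and 0 passed (limma). Their part in the results on OE was not tested. The summed level of 6 leukocyte markers was 1.99 to 3.25 FPKM, mostly CD68 and highest in the mimics libraries, with CD3E at 0 in all 6. That of 4 endothelial markers was 0.0107 to 0.0728 FPKM, with CDH5 and KDR at 0, and that of 4 basal cell markers was 0.712 to 1.89 FPKM, mostly KRT15, with KRT5 at 0. Replicates correlated with r of 0.992 (NC), 0.994 (OE) and 0.983 (mimics) on the log2 scale, taken over tested rows, and rows are not independent of each other. The mimics libraries stood apart from each other. The 13 mitochondrially encoded genes made up 6.23% of all FPKM in the first mimics library (replicate 1) and only 0.533% in the second, while the other 4 libraries had 8.29% to 9.67%. The summed level of 6 fibroblast markers was 180 FPKM in the first mimics library and 108 FPKM in the second, against 86.0 to 90.6 FPKM in the other 4. Nearly all of it was LUM, and COL1A2 was at or near 0 in every library. The part of these shifts in the results on mimics was not tested, apart from a rescaling given below for the mitochondrial genes. Some of the single results are given as log2 differences with and without each of these libraries. These carry no test, since a single mimics library shows no spread of its own. Counts of genes without overlap are given with both mimics libraries only. In bulk RNA, fewer cells of a kind and less RNA per cell cannot be told apart.

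The 42 genes spanned a wide range of levels. Their summed level was close in all libraries, from 2755 FPKM in mimics replicate 1 to 2947 FPKM in OE replicate 2. As a share of all FPKM it ran from 0.642% in mimics replicate 1 to 0.716% in OE replicate 1. Much of the sum was NPM1. Without NPM1 it was 2133 and 2181 FPKM in NC, 2275 and 2263 in OE, and 1917 and 2077 in mimics, where both libraries were lowest. NPM1 stood highest with a mean of 690.4 FPKM over 6 libraries, followed by NCL, FBL and NHP2, and MYC was the fifth at 102 FPKM. The MYC transcript stood higher than 95.8% of all tested rows in mean FPKM. UTP20 was lowest at 6.58 FPKM. Levels varied far less between libraries than between genes: the largest ratio between the highest and the lowest library was 1.79, in UTP4, and the smallest was 1.096, in MAX.

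**Figure D1:**
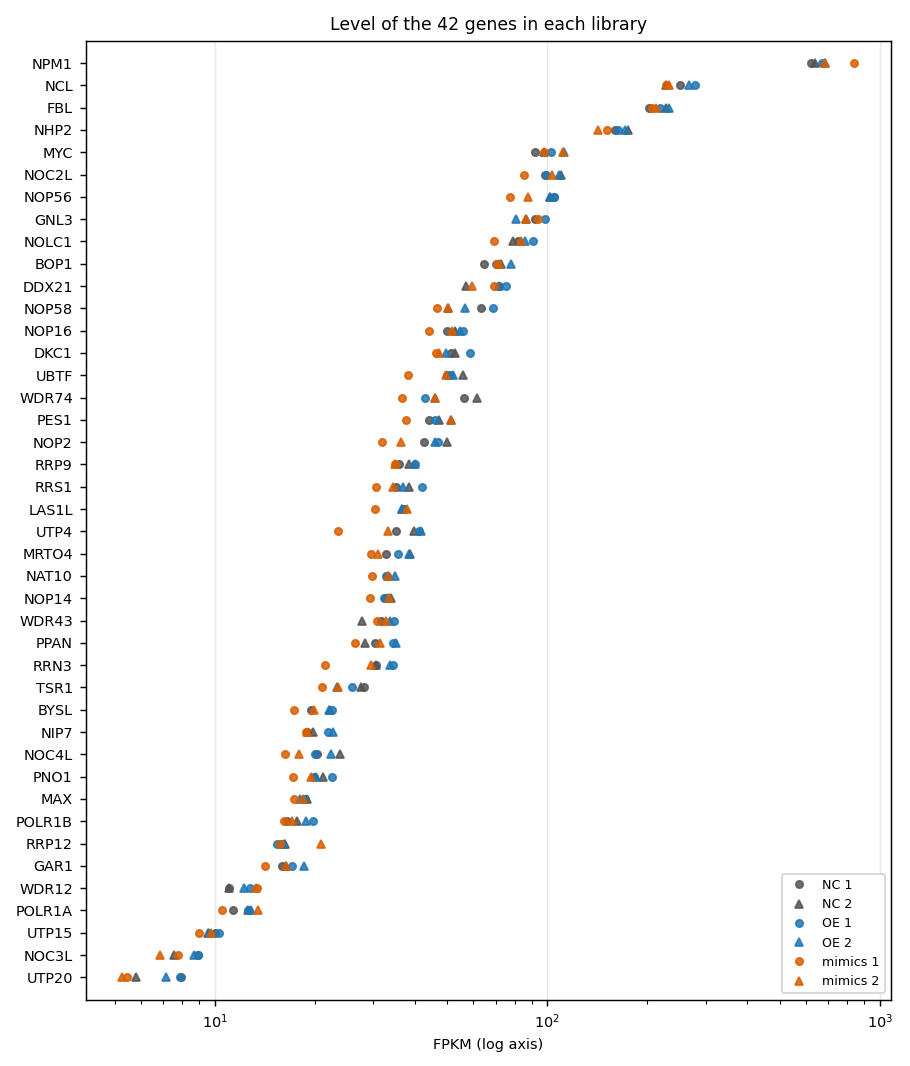
FPKM (log axis) of the 42 genes, 1 line per gene in order of mean level, with a circle for replicate 1 and a triangle for replicate 2 of NC (grey), OE (blue) and mimics (orange). The 6 libraries of a gene lie close together beside the range from UTP20 at 5.27 FPKM to NPM1 at 839 FPKM.

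The comparison of OE with NC asks how the cells' RNA differs when MAGI2-AS3 is overexpressed. None of the 42 genes passed the threshold of an adjusted p under 0.05 (limma, Benjamini-Hochberg over 13998 rows), where 0.0143% of all tested rows were called higher and 0.243% lower. At an unadjusted p under 0.05 there was 1 gene, WDR74 (2.38%, against 6.48% of all tested rows). Most differences were small and above 0: the log2 difference of OE from NC was above 0 in 33 genes and below 0 in 9, with a median of 0.09, against a median of -0.02 over all tested rows, of which 44.6% were above 0. Both OE libraries were above both NC libraries in 15 genes (35.7%, against 15.4% of all tested rows), and both were below in 3 genes (7.14%, against 26.5% of rows). The 95% intervals of 39 genes lay within 0.5 log2 units of 0, and those of all 42 within 1 log2 unit.

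The comparison of mimics with NC asks the same for miR-106a-5p, and it shares the NC libraries with the comparison above. In it 1 of the 42 genes passed: WDR74, a factor of large subunit maturation, was lower in mimics, where 3.71% of all tested rows were called lower. No gene of the set was called higher, against 4.29% of rows. The log2 difference of mimics from NC was below 0 in 34 genes and above 0 in 8, with a median of -0.09, against -0.00 over all tested rows. Of all tested rows, 49.7% were above 0. At an unadjusted p under 0.05 by limma there were 7 genes (16.7%, against 25.8% of all tested rows). Both mimics libraries were below both NC libraries in 18 genes (42.9%, against 25.6% of rows) and above in NPM1 and WDR12 alone (4.76%, against 27.2% of rows).

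Set directly against mimics, OE had 0 of the 42 genes called in either direction (limma, adjusted p under 0.05), against 2.52% of rows called higher and 5.32% lower, and 11 genes had an unadjusted p under 0.05 (26.2%, against 26.5% of rows). The log2 difference of OE from mimics was above 0 in 38 genes (90.5%, against 47.6% of all rows), with a median of 0.20, against -0.02 over all rows. Both OE libraries were above both mimics libraries in 26 genes (61.9%, against 25.2% of rows) and below in NPM1 and WDR12 (4.76%, against 30.5% of rows).

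**Figure D2:**
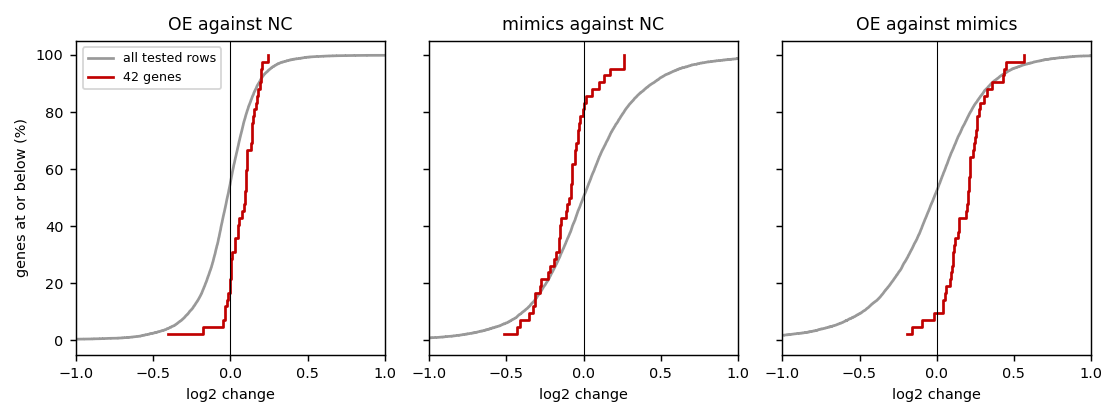
Share of genes (%) at or below each log2 change for the 42 genes (red) and all 13998 tested rows (grey), in 1 panel per comparison, cut at changes of -1 and 1. The red steps lie to the right of the grey curve for OE against NC and OE against mimics, with medians of 0.09 and 0.20, and mostly to its left for mimics against NC, with a median of -0.09.

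The mimics libraries differed in how far the 42 genes stood from the NC mean. The median deviation from the NC mean over the 42 genes was -0.18 on the log2 scale in mimics replicate 1, with 7 genes above the NC mean, and -0.04 in mimics replicate 2, with 16 genes above. Over all tested rows the median deviation was -0.06 and 0.05 in these libraries, so relative to it the 42 genes stood at -0.12 and -0.09. The share of the 42 genes in all FPKM outside the mitochondrially encoded genes was 0.685% and 0.69% in the mimics libraries, 0.751% and 0.733% in NC, and 0.793% and 0.773% in OE. The OE libraries had median deviations of 0.10 and 0.08, each with 31 genes above the NC mean, and stood at 0.11 and 0.11 relative to all rows. The median log2 difference of OE from mimics over the 42 genes was 0.26 without mimics replicate 2 and 0.10 without mimics replicate 1. With a single mimics library left, its spread has to be borrowed from the other groups. The mimics replicates differed more than the others, with a median absolute log2 difference over tested rows of 0.20, against 0.13 in NC and 0.11 in OE. Fits with a single mimics library are therefore given here as log2 differences only. With mitochondrially encoded genes left out of each library's total and both mimics libraries kept, 4 genes were called lower in mimics than in NC (NOP2, NOP56, NOC4L and WDR74; 9.52% of the set, against 5.68% of rows called lower), the median of the 42 genes was -0.18 and that of all rows -0.09.

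**Figure D3:**
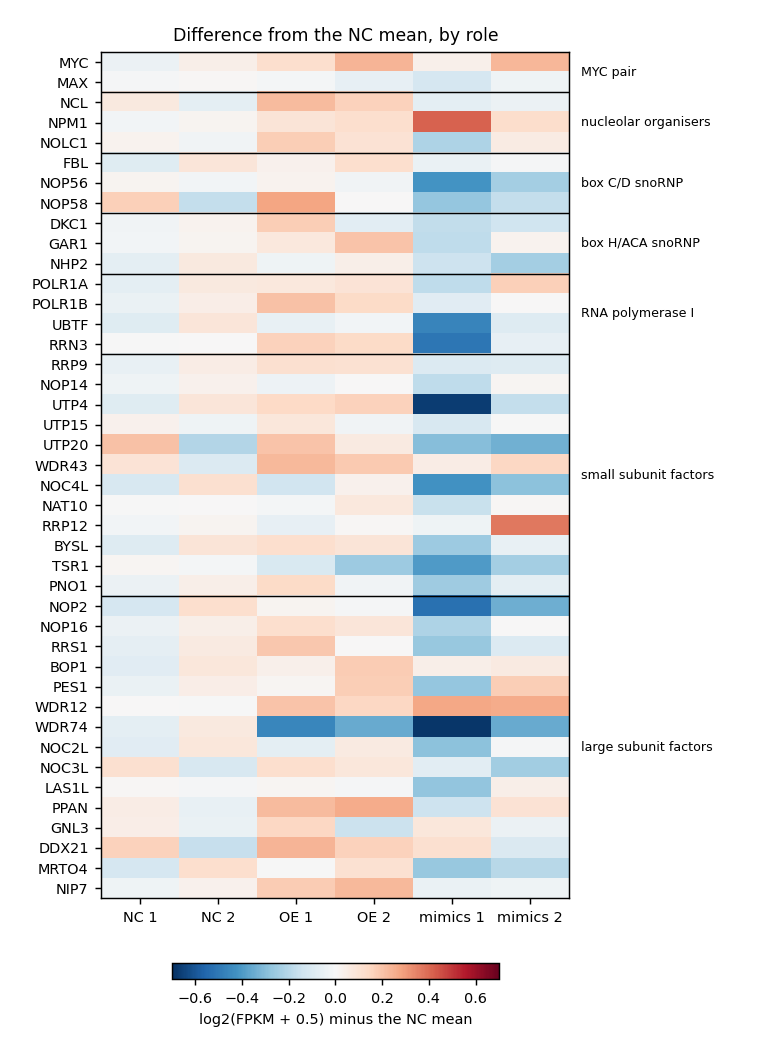
Difference of log2(FPKM + 0.5) from the NC mean for the 42 genes (rows, grouped by role) in the 6 libraries (columns), with red above and blue below the NC mean on a scale from -0.7 to 0.7. The column of mimics replicate 1 is mostly blue (7 of 42 genes above the NC mean), the OE columns are mostly pale red, and WDR74 is blue in all OE and mimics libraries.

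MYC itself stood at 92.2 and 97.9 FPKM in NC, 103 and 112 FPKM in OE, and 97.5 and 112 FPKM in mimics. Both OE libraries were above both NC libraries, while mimics replicate 1 lay between the NC libraries. The log2 difference from NC was 0.18 in OE (95% interval -0.08 to 0.43, adjusted p = 0.938 by limma) and 0.14 in mimics (-0.12 to 0.39, adjusted p = 0.481). OE differed from mimics by 0.04 (-0.21 to 0.29, adjusted p = 0.846), and the sign of this last value turned when OE replicate 2 or mimics replicate 1 was left out. Against NC, the value of mimics was 0.0376 without mimics replicate 2 and 0.23 without mimics replicate 1. When scaled without mitochondrially encoded genes it was 0.041 (adjusted p = 0.826 by limma). The intervals leave room for a difference in MYC of up to 0.43 log2 units and contain 0. MAX, which MYC needs to bind DNA, was steadier at 18.7 and 19.0 FPKM in NC, 18.6 and 18.1 in OE, and 17.3 and 18.4 in mimics. Its log2 differences from NC were -0.04 in OE and -0.08 in mimics, with adjusted p of 0.998 and 0.681 by limma.

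Among the genes of the set, BOP1, a large subunit factor, had the profile most like that of MYC over the 6 libraries, with a root mean square difference of 0.07 log2 units between the profiles after each was centred on its own mean. POLR1A (0.08), FBL (0.08), NAT10 (0.09) and GAR1 (0.09) came next. The least like were WDR74 (0.30), UTP4 (0.27), UTP20 (0.27), NOP2 (0.25) and NOP58 (0.23). A gene at the same level in all 6 libraries would stand at 0.10, the spread of MYC's own profile. FBL and NAT10 varied little themselves, with a spread of 0.07 each, so their nearness to MYC need not mean a shared pattern. Of the tested rows, 0.843% were closer to MYC than BOP1 was, and 4.34% closer than GAR1. The median over the 41 genes was 0.13, against 0.19 over the other tested rows, and the spread of the 41 genes' own profiles was also smaller (0.12 against 0.17). These are descriptions over 6 libraries that share their depth and library effects.

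The 3 nucleolar organisers are the most abundant proteins of the nucleolus or their partners. Nucleophosmin (NPM1), which forms the outer, granular part of the nucleolus, was at 623 and 639 FPKM in NC, 672 and 683 in OE, and 839 and 686 in mimics. All 4 OE and mimics libraries were above both NC libraries, with mimics replicate 1 far above the rest. The log2 difference of mimics from NC was 0.27 (95% interval -0.07 to 0.60, adjusted p = 0.294 by limma). It was 0.41 without mimics replicate 2 and 0.12 without mimics replicate 1. Nucleolin (NCL), which binds the precursor RNA and ribosomal DNA chromatin, was at 251 and 227 FPKM in NC, 279 and 267 in OE, and 228 and 232 in mimics. OE was the highest group and did not overlap NC or mimics, and its log2 difference was 0.19 from NC (adjusted p = 0.913 by limma) and 0.25 from mimics (adjusted p = 0.198). NOLC1, a chaperone of snoRNA particles, likewise was above both NC libraries in both OE libraries, with means of 88.3 ± 3.27 and 80.3 ± 2.04 FPKM (SD, n = 2).

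Box C/D particles methylate ribosomal RNA at sugar positions that their guide snoRNAs pair with. Their core protein NOP56 was at 105 and 102 FPKM in NC, 105 and 102 in OE, and 77.2 and 87.6 in mimics. NC and OE coincided, and both mimics libraries were below all 4 of them. The log2 difference of NOP56 from NC was 0.00 in OE (95% interval -0.24 to 0.24) and -0.33 in mimics (adjusted p = 0.0894 by limma), and OE differed from mimics by 0.33 (adjusted p = 0.0876), so it did not pass in any comparison. Against NC the value of mimics was -0.42 without mimics replicate 2 and -0.24 without mimics replicate 1. NOP58, the other scaffold of this particle, had 63.4 and 50.4 FPKM in NC, 68.5 and 56.5 in OE, and 46.7 and 50.2 in mimics. The mimics libraries were again lowest, but only narrowly, and NC and OE overlapped. FBL, the methyltransferase of the particle, differed little between groups at 215 ± 17.7 FPKM for NC, 226 ± 9.82 for OE and 210.2 ± 4.21 for mimics (SD, n = 2).

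Box H/ACA particles convert uridine to pseudouridine in ribosomal RNA. None of their 3 genes passed in any comparison. The catalytic protein DKC1 and its partner NHP2 were lower in both mimics libraries than in both NC libraries. DKC1 had means of 52.1 ± 1.15 FPKM for NC, 54.1 ± 6.58 for OE and 46.8 ± 0.786 for mimics (SD, n = 2). NHP2 had means of 167 ± 10.97 FPKM for NC, 168 ± 5.68 for OE and 147 ± 6.76 for mimics, a log2 difference of mimics from NC of -0.19 (adjusted p = 0.303 by limma). GAR1 was higher in both OE libraries, at 17.0 and 18.6 FPKM, than in NC, at 15.9 and 16.4 FPKM, and its mimics libraries at 14.2 and 16.4 overlapped NC.

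RNA polymerase I was represented by its catalytic subunits POLR1A and POLR1B, by UBTF, which binds ribosomal DNA, and by RRN3, which brings the polymerase to its promoter. RRN3 was at 30.6 and 30.7 FPKM in NC, 34.4 and 33.7 in OE, and 21.4 and 29.5 in mimics. OE was above and mimics below NC without overlap, but the mimics libraries were far apart. The log2 difference of mimics from NC was -0.28 (adjusted p = 0.253 by limma). It was -0.51 without mimics replicate 2 and -0.06 without mimics replicate 1. UBTF was at 49.8 and 56.0 FPKM in NC, 51.0 and 52.2 in OE, and 38.3 and 49.6 in mimics. Here too replicate 1 of mimics was the low one: the log2 difference from NC was -0.28 with both libraries, -0.46 with replicate 1 alone and -0.09 with replicate 2 alone. RRN3 and UBTF carry the seed matches shown above. POLR1A, which carries a pair of them, was at 11.4 and 12.6 FPKM in NC, 12.6 and 12.9 in OE, and 10.5 and 13.5 in mimics, where the mimics libraries enclosed those of NC. POLR1B had 16.6 and 17.7 FPKM in NC, 19.8 and 18.8 in OE, and 16.2 and 17.1 in mimics, and its log2 difference of OE from NC was 0.17 (adjusted p = 0.934 by limma).

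The 12 small subunit factors act on the early precursor with the U3 snoRNA particle and stay with the small subunit as it matures. Their median log2 difference from NC was 0.04 in OE and -0.12 in mimics, and that of OE from mimics was 0.17, with 0 called in each. UTP4, part of the complex that first binds the precursor RNA, was at 35.2 and 39.7 FPKM in NC, 41.2 and 41.9 in OE, and 23.4 and 33.2 in mimics. Its groups did not overlap, with OE highest and mimics lowest. The log2 difference from NC was 0.15 in OE (adjusted p = 0.998 by limma) and -0.41 in mimics (adjusted p = 0.139), and OE differed from mimics by 0.57 (95% interval 0.21 to 0.92, adjusted p = 0.061). Against NC the value of mimics was -0.66 without mimics replicate 2 and -0.17 without mimics replicate 1.

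UTP20, a large scaffold of the small subunit precursor and the lowest gene of the set, was at 7.93 and 5.82 FPKM in NC, 7.88 and 7.13 in OE, and 5.44 and 5.27 in mimics. Both mimics libraries were below the rest, and the NC libraries enclosed those of OE. Its log2 difference of OE from mimics was 0.45 (adjusted p = 0.118 by limma). NOC4L, which works with NOP14 in small subunit assembly, was at 20.3 and 23.8 FPKM in NC, 20.0 and 22.4 in OE, and 16.2 and 17.9 in mimics, a log2 difference of mimics from NC of -0.36 (adjusted p = 0.11). TSR1, a late factor of the small subunit, was lower than NC in both OE and mimics libraries, at 28.1 and 27.5 FPKM in NC, 25.8 and 23.3 in OE, and 21.0 and 23.6 in mimics. Its log2 difference was -0.18 for OE (adjusted p = 0.929 by limma) and -0.32 for mimics (adjusted p = 0.11). That of mimics was -0.39 without mimics replicate 2 and -0.24 without mimics replicate 1. WDR43, of the same early complex as UTP4, was higher in both OE libraries (34.7 and 33.6 FPKM) than in NC (31.6 and 27.7). RRP9, a protein of the U3 particle, had OE above NC and mimics below NC without overlap, with means of 40.1 ± 0.11, 37.2 ± 1.83 and 34.8 ± 0.0375 FPKM (SD, n = 2). NAT10, which acetylates ribosomal RNA, stayed between 29.6 and 34.8 FPKM in all libraries. RRP12 stood out in a single library, at 20.9 FPKM in mimics replicate 2 against 15.4 to 16.3 FPKM in the other 5.

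The 15 large subunit factors included the one gene of the set that passed. WDR74 was at 56.3 and 61.7 FPKM in NC, 42.8 and 46.1 in OE, and 36.5 and 46.0 in mimics. All 4 OE and mimics libraries were below both NC libraries, and OE and mimics overlapped. WDR74 fell in mimics by 0.52 on the log2 scale (SE 0.13, 95% interval -0.81 to -0.23, adjusted p = 0.0424 by limma). In OE the log2 difference from NC was -0.40 (95% interval -0.69 to -0.11, unadjusted p = 0.0117, adjusted p = 0.547), and OE differed from mimics by 0.11 (adjusted p = 0.616). The call in mimics was lost in 8 of 16 other settings, among them when any 1 of the NC or OE libraries or mimics replicate 1 was left out. The log2 difference stayed below 0 throughout, from -0.68 to -0.36.

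WDR74 lies at chr11:62832342-62841809 on the minus strand of GRCh38. The 191 bases at its 5′ end, chr11:62841619-62841809, are also annotated as RNU2-2P, a U2 small nuclear RNA gene on the same strand. An exon of WDR74 also overlaps TEX54 on the same strand and AP001160.1 on the other. With the counting rule and strand setting unstated, the FPKM of WDR74 cannot be assigned to WDR74 messenger RNA alone, and this was not tested. The same holds in part for 24 of the 42 genes with an exon that overlaps another gene. Of these, 6 overlap a small RNA gene (WDR74, NOP56, NOP58, DKC1, BOP1 and GNL3), 4 a further gene on the same strand and 17 one on the other strand, with some genes in more than 1 of these classes. The further genes on the same strand, besides that of WDR74, were PPAN with P2RY11, NOP2 with AC006064.6 and RRS1 with AC009879.2.

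NOP2, which methylates cytosine in large subunit RNA, was at 42.5 and 50.02 FPKM in NC, 46.8 and 45.9 in OE, and 31.9 and 36.3 in mimics. Both mimics libraries were below the other 4, and OE lay within NC. The log2 difference from NC was 0.0073 in OE and -0.43 in mimics (95% interval -0.70 to -0.17, adjusted p = 0.0559 by limma), and OE differed from mimics by 0.44 (95% interval 0.18 to 0.70, adjusted p = 0.0541). NOP2 did not pass in any comparison. In mimics against NC it passed with a filter at 2 FPKM, with quantile normalization and when scaled without mitochondrially encoded genes. It passed in no other setting of that comparison that left no library out. The log2 difference of mimics from NC was -0.52 without mimics replicate 2 and -0.34 without mimics replicate 1. BOP1, PES1 and WDR12 form a complex needed for large subunit RNA processing, and their values differed. WDR12 was at 11.06 and 11.04 FPKM in NC, 12.8 and 12.3 in OE, and 13.4 and 13.4 in mimics, a log2 difference of mimics from NC of 0.27 (adjusted p = 0.155 by limma). BOP1 differed little at 68.6 ± 5.52 FPKM for NC, 73.9 ± 5.29 for OE and 71.1 ± 0.90 for mimics (SD, n = 2), and PES1 overlapped between all groups. PPAN had the largest positive log2 difference of OE from NC, 0.24 (adjusted p = 0.806 by limma), at 30.3 and 28.2 FPKM in NC, 34.3 and 35.2 in OE, and 26.4 and 31.5 in mimics. NIP7, a late nucleolar factor, was at 19.0 and 19.8 FPKM in NC, 22.0 and 22.8 in OE, and 18.8 and 19.0 in mimics, with OE above both other groups. NOC2L, at 85.1 to 110 FPKM, and the nucleostemin gene GNL3, at 80.4 to 98.8 FPKM, overlapped between NC and the other groups.

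**Figure D4:**
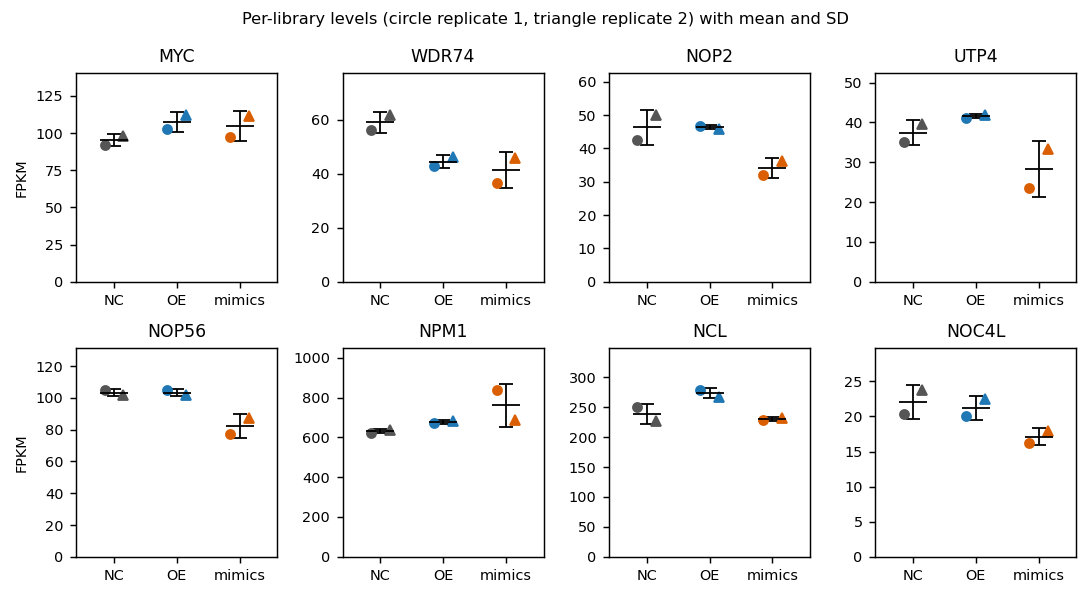
FPKM of 8 genes in each library (circle for replicate 1, triangle for replicate 2) with the group mean and SD (n = 2), each panel starting at 0. MYC differs little between groups, WDR74 is lower in OE and mimics than in NC, NOP2, UTP4, NOP56 and NOC4L are lowest in mimics, and NPM1 is highest in mimics replicate 1.

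**Figure D5:**
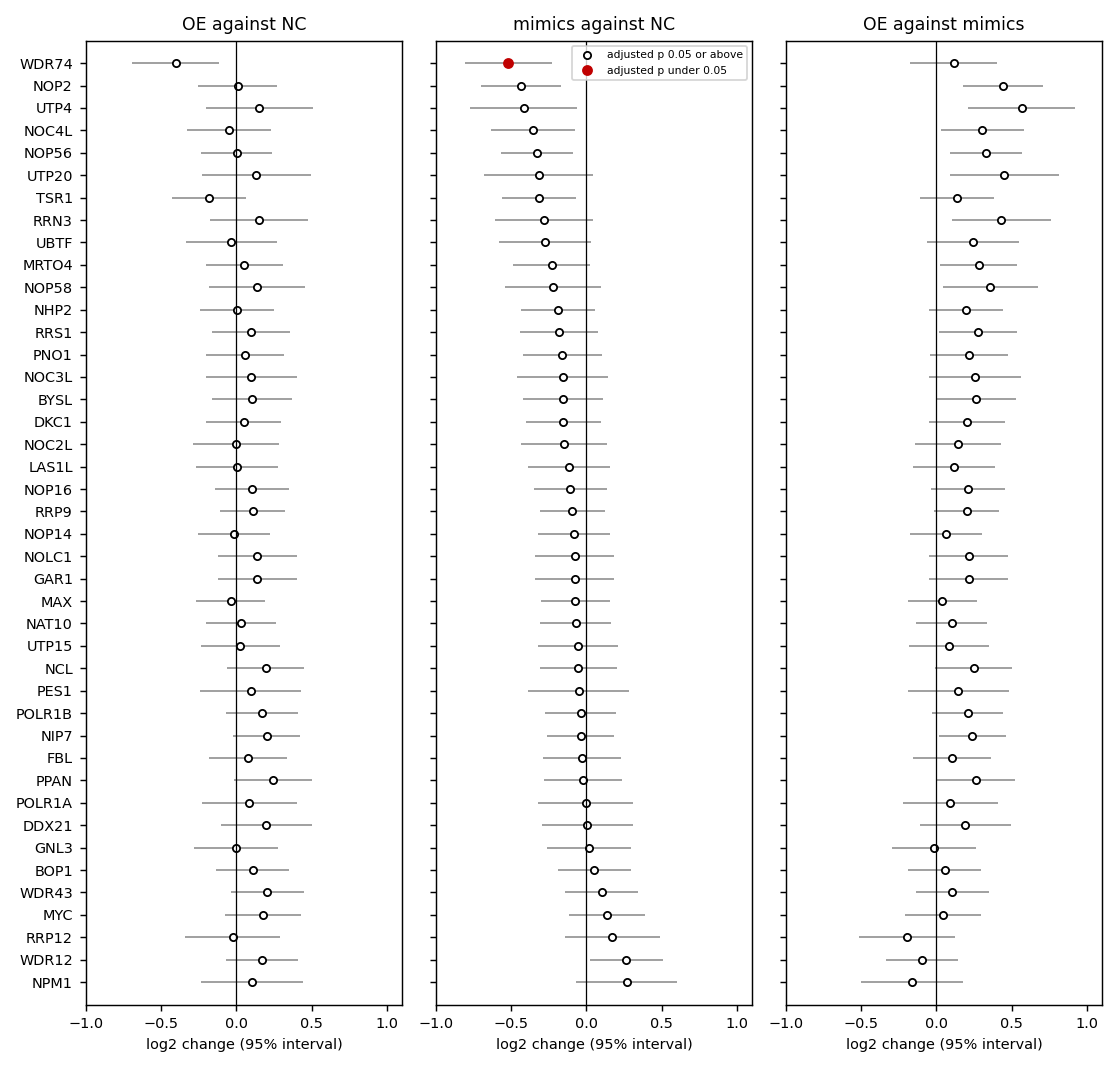
Fitted log2 change with its 95% interval for each of the 42 genes, 1 panel per comparison, ordered by the change in mimics against NC, with a filled red point for an adjusted p under 0.05. The single filled point is WDR74 in mimics against NC at -0.52, and no interval reaches beyond -0.81 or 0.92.

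The sequence features shown at the start were set beside these differences. The 16 genes with an E-box in the window had median log2 differences of 0.10 for OE against NC and -0.09 for mimics against NC. The 20 searched genes without it had 0.04 and -0.11. The 8 genes with a seed match had a median log2 difference of mimics from NC of -0.13, with a range from -0.32 in TSR1 to 0.27 in WDR12, and the 34 without had -0.09. These medians carry no test. Of the 10 matches, 4 (40.0%) had the same 4 bases on each side as that of TSR1, and lay in TSR1, WDR12, MRTO4 and NIP7. The share was 19.7% of 5395 matches in tested protein-coding genes. A further shared feature was that 8 of the 42 genes (19.0%) contain snoRNA genes, 27 in all, against 1.78% of 12357 tested protein-coding genes in GENCODE 29. They are NCL, NOP56, NOP58, DKC1, WDR43, TSR1, PPAN and GNL3, and their median log2 difference of mimics from NC was -0.10.

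Other genes of the same processes were read from lists. Among 39 further small subunit factors and 38 further large subunit factors the median log2 difference of OE from NC was 0.06 and 0.08 and that of mimics from NC -0.05 and -0.07, beside 0.09 and -0.09 for the 42 genes. None passed in OE against NC. In mimics 1 of each list rose, or 2.56% and 2.63% of the lists, against 4.29% of all tested rows: NOB1, the nuclease of the last small subunit cut, with a log2 change of 0.55 (adjusted p = 0.0271 by limma), and NOP53, a large subunit factor, with 0.64 (adjusted p = 0.0251). Without mimics replicate 1 these were 0.44 and 0.49. Exons of NOB1 and NOP53 overlap a gene on the other strand (AC092115.3 and NOP53-AS1), so their reads may be shared. Of 19 tested MYC targets outside ribosome production, 0 passed against NC in OE or in mimics. TFRC, the transferrin receptor, had the largest difference of these in OE, with 88.7 and 79.9 FPKM against 59.3 and 54.0 in NC and an adjusted p of 0.116 by limma. In OE against mimics, TFRC was the 1 of the 19 that passed (5.26%, against 2.52% of rows called higher). Its log2 difference of OE from mimics was 0.71 (adjusted p = 0.00728 by limma). It was 0.68 without mimics replicate 1 and 0.75 without mimics replicate 2.

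In the network of proteins that share MAX or its relative MLX, 3 of 10 tested genes rose and 1 fell in mimics against NC, where 4.29% of all rows were called higher and 3.71% lower, and 0 passed in OE. MXD3, which competes with MYC for MAX, was at 32.6 and 29.2 FPKM in NC, 25.3 and 26.3 in OE, and 18.2 and 16.02 in mimics, a log2 change of -0.83 in mimics (adjusted p = 0.00488 by limma). An exon of MXD3 overlaps RAB24 on the same strand and PRELID1 on the other, so its reads may be shared. MXD4, of the same family, rose from 10.1 and 11.1 FPKM in NC to 16.1 and 16.2 in mimics, by 0.59 on the log2 scale (adjusted p = 0.0165). MLXIPL, a glucose-responsive partner of MLX, rose by 0.69 (adjusted p = 0.042) from a low level of 1.49 and 1.54 FPKM. The log2 changes of MXD3, MXD4 and MLXIPL were -0.92, 0.59 and 0.72 without mimics replicate 1. They were -0.74, 0.58 and 0.66 without mimics replicate 2. The call of MLXIPL was lost when scaled without mitochondrially encoded genes (adjusted p = 0.068 by limma).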

How the data were processed

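The files analysed hold FPKM values deposited by the authors, 1 column per library, for 2 NC, 2 OE and 2 mimics libraries. Per the labels' protocols, TRIzol served for RNA extraction and a Hieff NGS Ultima Dual-mode kit for mRNA libraries. The submitters' processing notes name HISAT2 2.0.4 and GRCh38. How reads were counted, with which annotation and strand setting, is not given in the sources used here. FPKM divides by transcript length and library total, so a change in very abundant transcripts, such as the mitochondrial ones, shifts all others. The depth of the libraries is unknown and was not recovered, since low values showed no common step, so no counting error is given.

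Differences were tested with limma 3.58.1 in R 4.3.3 applied to log2(FPKM + 0.5). The model held all 6 libraries and 13998 rows averaging 0.5 FPKM or more, with an intensity trend (3 residual and 5.67 prior degrees of freedom). Tests were two-sided with Benjamini-Hochberg adjustment over all tested rows and a threshold of 0.05, and the script was tested on simulated data. Log2 changes on this scale understate those of low genes. An exact permutation test of 2 against 2 libraries cannot go below p = 0.333. The 42 genes, the related lists and the alternative settings were chosen with earlier results of these data known. Genes named were MYC and MAX, those that passed, in each role the one with the largest change and the one with the highest level, the 5 most and 5 least like MYC, and leading genes of each related list. NOC4L, TSR1, NOLC1, DKC1, RRP12, WDR12, PES1, PPAN, NIP7 and GNL3 fell outside this rule and were chosen after their values were seen. Sequences are from RefSeq (GRCh38.p14), and 3′ UTRs and gene overlaps from GENCODE 29. The 16 alternatives were other pseudocounts, filters and scalings, a fit of 4 libraries, a replicate block, no trend, and leaving out each library. Some values and sequences are not reported here.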

Additional observations from a re-analysis of the deposited data

How the results depend on the processing

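No gene of the 42 passed in OE against NC under any of the 16 other settings (limma). The rows called there were 36, and became 0 with no filter on low values, 119 with only the 4 libraries compared, 9 with a replicate block and 5 to 121 with a library left out. In mimics against NC, 600 rows were called higher and 520 lower, and the total was 347 with no filter, 601 with 4 libraries and 65 to 3018 with a library left out. The genes of the set called there were 1, and became 0 with no filter, with 4 libraries or with no intensity trend, 2 with a filter at 2 FPKM or quantile normalization, 4 when scaled without mitochondrially encoded genes, and 0 to 8 with a library left out. Their median log2 change was -0.09, and -0.18 under the mitochondrial scaling and -0.18 to -0.0364 with a library left out. In OE against mimics, 353 rows were called higher and 745 lower, and the total was 325 with no filter, 641 with 4 libraries and 136 to 2765 with a library left out. The 0 genes of the set called became 1 with a filter at 2 FPKM (NOP2) or with a replicate block (NOP2), 2 with median scaling or quantile normalization, 3 under the mitochondrial scaling and 0 to 7 with a library left out, and their median of 0.20 became 0.29 under the mitochondrial scaling and 0.10 to 0.26 with a library left out. The genes called in OE against mimics were 2.38% of the set with the filter (9.54% of rows) or the replicate block (6.70% of rows). They were 4.76% with median scaling (9.14% of rows) or quantile normalization (9.45%), and 7.14% under the mitochondrial scaling (7.61%). Scaling also moved the split of rows called higher and lower: from 600 and 520 to 405 and 795 in mimics against NC under the mitochondrial scaling, and in OE against mimics from 353 and 745 to 539 and 740 (median), 573 and 750 (quantile) or 557 and 509 (mitochondrial). The sign of some values near 0 turned. In OE against NC, NOC2L became 0.0212 with median scaling and 0.0211 with quantile normalization, and NOP56 became -0.0017 under the mitochondrial scaling. In mimics against NC, POLR1A became 0.024 with quantile normalization and BOP1 -0.0424 under the mitochondrial scaling. With a library left out, the log2 differences of OE from NC ranged from -0.0085 to 0.16 for FBL, -0.0621 to 0.0714 for NHP2, -0.11 to 0.12 for NOP2, -0.0219 to 0.024 for NOP56, -0.0259 to 0.30 for NOP58, -0.12 to 0.0499 for UBTF, -0.0755 to 0.34 for UTP20, -0.0818 to 0.0759 for NOC2L and -0.0151 to 0.0718 for NAT10. Those of mimics from NC ranged from -0.12 to 0.0169 for NCL, -0.0296 to 0.13 for BOP1, -0.11 to 0.0559 for FBL, -0.18 to 0.17 for POLR1A, -0.0858 to 0.0084 for POLR1B, -0.18 to 0.0246 for GAR1 and -0.15 to 0.0101 for NAT10. Those of OE from mimics ranged from -0.0566 to 0.14 for MYC, -0.0177 to 0.13 for BOP1, -0.0043 to 0.0811 for MAX, -0.082 to 0.27 for POLR1A and -0.0485 to 0.28 for WDR74. The cause was not tested, except that fewer libraries or more rows enter some fits. A lone library left in a group is assumed to vary like the others, although the mimics replicates differed more than those of NC or OE. Replicate numbers are shared between groups. The differences between replicates 1 and 2 correlated across rows with r of 0.153 (NC and OE), -0.0268 (NC and mimics) and 0.0194 (OE and mimics). The labels do not say whether libraries of the same number were paired, and these values cannot settle it. The replicate block left WDR74 called in mimics against NC. FPKM gave no depth, so the precision of low genes such as UTP20 is known only from replicates.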

Other observations

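RNA polymerases I and III make the ribosomal RNAs and transfer RNAs, and their other genes were not part of the 42. Of 11 further RNA polymerase I genes, 1 rose and 1 fell in mimics against NC, where 4.29% of all tested rows were called higher and 3.71% lower, and 0 passed in OE (limma). POLR1D, a subunit shared with RNA polymerase III, was at 51.8 and 56.8 FPKM in NC, 57.5 and 60.1 in OE, and 113 and 82.1 in mimics, a log2 change of 0.82 in mimics (adjusted p = 0.0144 by limma). TAF1A, a subunit of the promoter selectivity factor of RNA polymerase I, was at 9.54 and 7.10 FPKM in NC and 4.86 and 4.45 in mimics, a log2 change of -0.76 (adjusted p = 0.0232). Of 21 RNA polymerase III genes, 2 fell in mimics, or 9.52%, against 3.71% of rows: MAF1, the repressor of this polymerase, by 0.48 on the log2 scale (adjusted p = 0.0371), and its small subunit POLR3K, with a log2 change of -0.41 (adjusted p = 0.0428). The log2 changes of MAF1, POLR3K, POLR1D and TAF1A were -0.48, -0.36, 0.59 and -0.82 without mimics replicate 1. They were -0.48, -0.45, 1.05 and -0.70 without mimics replicate 2. Exons of TAF1A, MAF1 and POLR3K overlap a gene on the other strand (TAF1A-AS1, SHARPIN and SNRNP25), so their reads may be shared. In the nuclear RNA exosome, which trims precursor RNAs, 0 of 14 genes passed in any comparison. The E-box CACGTG stood in 6 of 16 searched RNA polymerase III genes (37.5%), 0 of 7 further RNA polymerase I genes and 1 of 12 exosome genes (8.33%), against 12.8% of tested genes outside the 42.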
